A study of Mus musculus with 35 samples.

Results

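The EGF receptor (EGFR) system was followed in RNA of whole mouse lung through 10 genes, taken by symbol from a table of 57186 genes. They are the 7 ligands of EGFR, amphiregulin (Areg), epiregulin (Ereg), heparin-binding EGF-like growth factor (Hbegf), transforming growth factor alpha (Tgfa), epigen (Epgn), betacellulin (Btc) and EGF (Egf), and the 3 receptors Egfr, Erbb2 and Erbb3. After naphthalene, Areg and Ereg rose most clearly. They were called at day 2 and day 5 in each genotype, and at day 7 with both genotypes averaged. The Areg calls of day 5 in each genotype and of day 7 were lost without some single libraries. So was the Ereg call in C lungs at day 5. Hbegf and Erbb3 rose by less, and were called at day 2 with both genotypes averaged. Hbegf was not called in KO lungs alone, and Erbb3 in neither genotype alone. The Erbb3 call, and the Hbegf call in C lungs alone, were lost without some single libraries. No tested member was called different between the genotypes.

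The 35 libraries fall into 12 groups by treatment, day label and genotype, with 3 libraries in each group except KO lungs at day 7 after naphthalene, which have 2. KO lungs came from RORaf/fIl7riCre mice and control (C) lungs from RORaf/f mice. Both genotypes carry the floxed Rora alleles, and the Cre of the KO mice is driven by Il7r, so that it acts in cells with present or past Il7r expression. The control label names no Cre, so loss of RORa and the presence of Cre at Il7r cannot be told apart. The groups in each genotype are naphthalene at days 2, 5 and 7, and untreated lungs with the same 3 day labels. The series design gives an age of 14 days for all mice and does not say whether it holds at treatment or at collection. Naphthalene is a club cell toxicant: cytochrome P450 of club cells, the secretory cells of the airway, turns it into reactive products that kill them.

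All 7 ligands are made as membrane-anchored precursors. Metalloproteases cut them loose, and the released domain binds EGFR on the same or a neighbouring cell. Receptors pair on binding and signal mainly through the RAS and ERK kinases. ERBB2 has no known ligand and acts as a partner. ERBB3 binds neuregulins, has little kinase activity of its own and signals through its partners. In lung, EGFR signalling is known for its part in repair of injured airway epithelium. Areg is also known as a product of group 2 innate lymphoid cells (ILC2s), whose development needs RORa.

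Library totals were 10696690 to 21062713 counts, so that a single read was worth 0.0486 to 0.0885 CPM, which is the count scaled to the library total and a TMM factor. Of the 57186 genes, 20606 had counts high enough to test, among them 9 of the 10 members. A gene was called where edgeR's quasi-likelihood test gave an adjusted p under 0.05 over all 20606 genes. Fold changes are from the same fit. Rora ranged from 25.2 to 63.9 CPM over the KO libraries and from 32.1 to 53.3 CPM over the C libraries and was called in no genotype comparison. Il7r ranged from 3.26 to 11.2 CPM in KO libraries and from 1.74 to 12.2 CPM in C libraries. Rora overlapped between the genotypes in each of the matched groups. Il7r was lower in KO lungs without overlap in treated lungs of days 2 and 7 and in untreated lungs of days 5 and 7, and overlapped in the other matched groups. In untreated lungs it was 4.74 to 5.11 CPM in KO lungs against 8.84 to 12.2 CPM in C lungs at day 5, and 3.26 to 5.06 CPM in KO lungs against 8.00 to 8.94 CPM in C lungs at day 7. Il7r was not called in any genotype comparison; averaged over untreated days its log2 change was -0.61 ± 0.24 (unadjusted p = 0.0169; adjusted p = 0.581). The position of the floxed part of Rora is not given in the sources used here. One untreated C library of day 5, replicate 1, stood apart with 158.5 CPM of the microglial gene P2ry12, against at most 3.92 CPM in every other library.

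In untreated lungs, levels were compared between members as CPM per kilobase of exon, with exon lengths from GENCODE M21. Hbegf had the highest level, 13.3 ± 1.81 CPM per kilobase (SD, n = 18), and Erbb2 followed with 11.3 ± 1.80 CPM per kilobase. Their ranges over the 18 untreated libraries overlapped. Erbb3 came next with 6.76 ± 1.36 CPM per kilobase. Areg with 2.58 ± 1.25, Tgfa with 2.55 ± 0.482 and Egfr with 2.13 ± 0.415 CPM per kilobase did not differ beyond their spread. Btc had 0.403 ± 0.151 CPM per kilobase, below every untreated value of Egfr. Egf with 0.0750 ± 0.0375, Epgn with 0.0587 ± 0.0649 and Ereg with 0.0564 ± 0.0470 CPM per kilobase overlapped one another at the bottom. Untreated lung RNA thus held Hbegf as its main EGFR ligand transcript and next to no Ereg.

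At day 2, naphthalene raised 2 of the 9 tested members in KO lungs and 3 in C lungs. Over all genes tested, 1.99% were called higher in KO lungs and 2.57% in C lungs. The other tested members were not called. With both genotypes averaged, 4 of 9 were higher, against 5.6% of all genes. In whole tissue, more or fewer cells of a type and more or less RNA per cell cannot be told apart.

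Areg, whose product is a low-affinity EGFR ligand, had 42.0, 31.9 and 43.4 CPM in naphthalene-treated KO lungs at day 2, against 4.16, 1.38 and 2.33 CPM in untreated KO lungs. Treated C lungs had 43.9, 42.5 and 41.8 CPM of Areg, against 2.38, 2.15 and 3.52 CPM in untreated C lungs. Every treated library lay above every untreated one by a wide margin, and the treated C libraries lay close together. The rise was 15.4-fold in KO lungs (95% interval 8.55 to 27.6; log2 change 3.94 ± 0.41 SE; adjusted p = 2.86e-07). In C lungs it was 15.9-fold (8.95 to 28.2; 3.99 ± 0.41; adjusted p = 1.04e-07).

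The Areg promoter is shown because Areg was the ligand with the highest level per kilobase at day 2 after injury. RefSeq promoter windows, from 250 bases before to 50 bases after the first base of the gene, were at hand for 7 of the 10 members, and not for Ereg, Hbegf and Erbb3. The window of Areg lies at chr5:91139349-91139648 on the plus strand of GRCm38.p6, and capitals mark a cyclic AMP response element:
Areg: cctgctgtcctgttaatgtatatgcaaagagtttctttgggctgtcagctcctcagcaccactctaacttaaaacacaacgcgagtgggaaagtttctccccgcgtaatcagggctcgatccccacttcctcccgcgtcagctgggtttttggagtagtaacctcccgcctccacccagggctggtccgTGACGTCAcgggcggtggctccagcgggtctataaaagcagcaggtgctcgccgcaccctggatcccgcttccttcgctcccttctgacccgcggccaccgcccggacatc
The element, TGACGTCA, reads the same on both strands, occurs once and starts 61 bases before the first base of the gene. It was found in 1.79% of 32851 promoter windows of this length. An AP-1 motif, TGANTCA, occurs in 7.81% of windows and the nuclear receptor core AGGTCA in 16.3%, both searched on both strands. Neither was found in the window of Areg. None of the 3 motifs was found in the windows of the other 6 members, 1 of which has 2 windows. A match is a run of letters and was not tested for binding.

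Ereg, a ligand of EGFR and ERBB4, had 15.6, 11.1 and 12.9 CPM in treated KO lungs at day 2, against 0.885, 0.330 and 0.219 CPM in untreated KO lungs. Treated C lungs had 11.3, 10.7 and 11.2 CPM of Ereg, against 0.389, 0.116 and 0.311 CPM in untreated C lungs. The untreated values stand for a few reads in each library, and no treated library overlapped them. The rise was 29.2-fold in KO lungs (14.3 to 59.6; log2 change 4.87 ± 0.50; adjusted p = 2.37e-07) and 39.8-fold in C lungs (19.2 to 82.6; 5.31 ± 0.52; adjusted p = 6.22e-08). Areg and Ereg are neighbours: in the RefSeq order on chromosome 5, Epgn, Ereg, Areg and Btc follow one another between Mthfd2l and Parm1. Of the outer members of this row, Epgn stayed at 0 to 5 reads per library and Btc was not called.

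Hbegf, a heparin-binding ligand of EGFR and ERBB4, had 64.4, 82.3 and 77.6 CPM in treated KO lungs at day 2, against 64.4, 60.0 and 59.1 CPM in untreated KO lungs. Treated C lungs had 104, 102 and 90.5 CPM, against 59.6, 72.9 and 57.3 CPM in untreated C lungs. The groups overlapped in KO lungs and did not in C lungs. The change was 1.56-fold in C lungs (1.26 to 1.95; log2 change 0.65 ± 0.16; adjusted p = 0.0107) and 1.22-fold in KO lungs (0.982 to 1.52; adjusted p = 0.381). Over both genotypes Hbegf was called, at 1.38-fold (1.18 to 1.62; adjusted p = 0.00424). The call in C lungs was lost without treated C replicate 1 or without untreated C replicate 1 or 3, with adjusted p of 0.0571 to 0.0697.

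The remaining ligands were not called at day 2. Tgfa, a classical EGFR ligand of epithelia, had 19.5 to 21.3 CPM in treated KO lungs and 14.1 to 16.1 CPM in untreated KO lungs. Its groups overlapped in C lungs, at 15.6 to 23.3 CPM after naphthalene and 13.2 to 18.1 CPM untreated. The Tgfa change over both genotypes was 1.27-fold (1.02 to 1.58; adjusted p = 0.165). Btc averaged 2.91 ± 0.534 CPM in treated KO lungs, against 1.64 ± 0.608 CPM in untreated KO lungs (SD, n = 3 each), with an adjusted p of 0.267. Egf averaged 0.944 ± 0.060 CPM in treated KO lungs and 1.09 ± 0.268 CPM in untreated KO lungs, and 1.18 ± 0.297 CPM in treated C lungs against 1.08 ± 0.650 CPM in untreated C lungs. Epgn had 48 reads over all 35 libraries, none in 9 of them, and was not tested.

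Among the receptors only Erbb3 was called at day 2, with both genotypes averaged. It had 69.4, 51.8 and 58.3 CPM in treated KO lungs, against 37.2, 35.4 and 41.2 CPM in untreated KO lungs. Treated C lungs had 60.2, 50.1 and 62.5 CPM, against 42.6, 49.9 and 28.7 CPM in untreated C lungs. The groups did not overlap in either genotype, although the highest untreated and lowest treated C libraries nearly met. Over both genotypes the log2 change was 0.59 ± 0.17 (0.24 to 0.93; adjusted p = 0.0215). The adjusted p was 0.149 in KO lungs alone and 0.322 in C lungs alone. The Erbb3 call over both genotypes was lost without treated KO replicate 1, treated C replicate 3, untreated KO replicate 2 or untreated C replicate 3, with adjusted p of 0.0501 to 0.0675. Egfr changed 1.02-fold (0.841 to 1.24) and Erbb2 1.03-fold (0.865 to 1.22) over both genotypes, and neither was called.

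**Figure D1:**
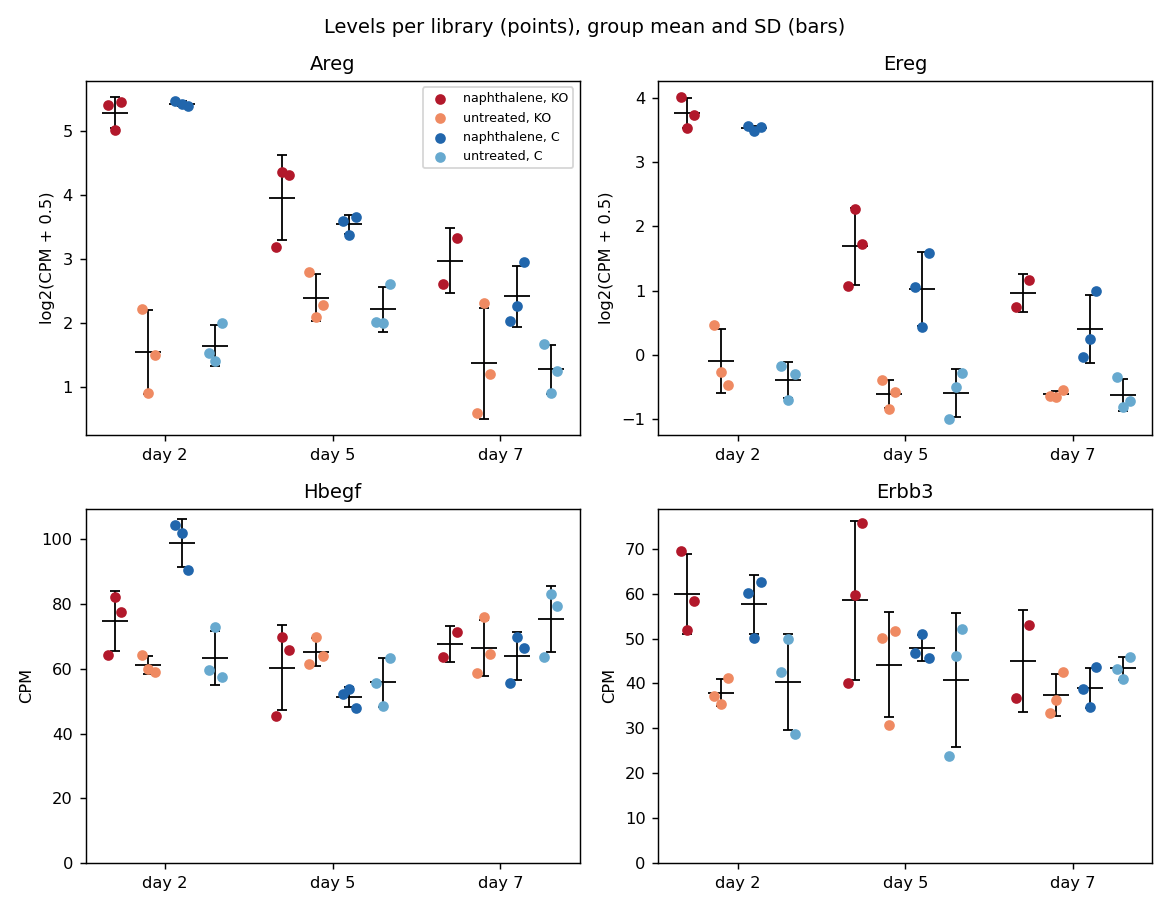
Levels of Areg, Ereg, Hbegf and Erbb3 in each library (points) with group mean and SD (bars), by day, genotype and treatment; the upper panels show log2(CPM + 0.5) and the lower panels CPM. Areg and Ereg of all treated libraries at day 2 lie above all untreated ones, while Hbegf at day 2 lies apart from the untreated libraries in C lungs and overlaps them in KO lungs.

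At day 5, 2 of 9 members were higher after naphthalene in each genotype, against 1.14% of all genes called higher in KO lungs and 1.1% in C lungs. They were Areg and Ereg again. Over both genotypes 2 of 9 were higher, against 4.34% of all genes.

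Areg had 8.67, 20.2 and 19.4 CPM in treated KO lungs at day 5, against 6.498, 3.78 and 4.39 CPM in untreated KO lungs. C lungs had 11.6, 9.94 and 12.2 CPM of Areg after naphthalene and 3.56, 3.51 and 5.65 CPM untreated. Treated and untreated libraries did not overlap in either genotype, and KO replicate 1 lay well below the other treated KO libraries. The rise was 3.30-fold in KO lungs (1.94 to 5.61; log2 change 1.72 ± 0.38; adjusted p = 0.0121) and 2.63-fold in C lungs (1.54 to 4.50; 1.40 ± 0.38; adjusted p = 0.044). Both single-genotype calls were fragile. In KO lungs the call was lost without treated replicate 2 or 3 or untreated replicate 2 or 3, with adjusted p of 0.0628 to 0.106. In C lungs it was lost without any treated replicate or without untreated replicate 1 or 2, with adjusted p of 0.107 to 0.225. The library with high P2ry12 is among these: without it the log2 change of Areg in C lungs was 1.29 (adjusted p = 0.225). With both genotypes averaged, Areg was 2.95-fold higher (2.02 to 4.30; adjusted p = 0.000374), and this call was kept whichever library was left out.

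Ereg had 1.60, 4.32 and 2.81 CPM in treated KO lungs at day 5, against 0.260, 0.0600 and 0.167 CPM in untreated KO lungs. In C lungs it had 1.58, 0.849 and 2.51 CPM after naphthalene, and 0, 0.211 and 0.320 CPM untreated. The groups did not overlap in either genotype. The rise was 18.2-fold in KO lungs (7.95 to 41.8; log2 change 4.19 ± 0.59; adjusted p = 7.26e-05) and 8.77-fold in C lungs (3.75 to 20.5; 3.13 ± 0.60; adjusted p = 0.00722). The Ereg call in C lungs was lost without treated C replicate 3 or untreated C replicate 1, with adjusted p of 0.0522 and 0.0692. The second of these is the library with high P2ry12, without which the log2 change was 2.62. Over both genotypes the rise was 12.6-fold (6.98 to 22.9; adjusted p = 1.1e-06) and was called whichever library was left out.

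Hbegf was back among the untreated values at day 5. It averaged 60.4 ± 13.06 CPM in treated KO lungs against 65.1 ± 4.31 CPM in untreated KO lungs, and 51.3 ± 2.99 CPM in treated C lungs against 55.8 ± 7.44 CPM in untreated C lungs (SD, n = 3 each). Erbb3 was not called, at 1.25-fold over both genotypes (0.984 to 1.58; adjusted p = 0.221). Egfr had 28.2, 29.2 and 34.6 CPM in treated C lungs, against 13.4, 21.97 and 27.97 CPM in untreated C lungs, which just failed to overlap, and was not called (adjusted p = 0.103). Without untreated C replicate 3, Egfr (log2 change 0.81; adjusted p = 0.00997) and Tgfa (0.72; adjusted p = 0.026) were called higher in C lungs at day 5. Over both genotypes that library's removal gave Egfr an adjusted p of 0.0149 and Tgfa one of 0.0162, and removal of treated KO replicate 1 gave Tgfa one of 0.0319.

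At day 7 no member was called in either genotype alone, where 0.0728% of all genes were called in KO lungs and 0.0388% in C lungs. At an unadjusted p under 0.05, 3 of 9 members passed in KO lungs and 2 of 9 in C lungs. Of all 20606 genes, 1284 passed at this threshold in KO lungs and 590 in C lungs. Areg had 5.63 and 9.59 CPM in treated KO lungs, against 1.01, 4.45 and 1.81 CPM in untreated KO lungs. In C lungs it had 3.59, 4.34 and 7.25 CPM after naphthalene, and 2.70, 1.38 and 1.87 CPM untreated. No treated library overlapped the untreated ones of its genotype. Averaged over genotypes, 2 of 9 members were higher, against 0.335% of all genes. They were Areg at 2.83-fold (1.85 to 4.32; adjusted p = 0.0123) and Ereg at 7.46-fold (3.76 to 14.8; adjusted p = 0.00154).

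Ereg had 1.18 and 1.74 CPM in treated KO lungs at day 7, against 0.144, 0.135 and 0.181 CPM in untreated KO lungs. C lungs had 0.479, 0.692 and 1.4995 CPM after naphthalene and 0.284, 0.0689 and 0.110 CPM untreated. The groups again did not overlap. The Ereg call over both genotypes was kept whichever library was left out. The Areg call was lost without treated KO replicate 2, treated C replicate 3, untreated KO replicate 3 or untreated C replicate 2, with adjusted p of 0.0507 to 0.112. In KO lungs alone, Areg was called (log2 change 2.41; adjusted p = 0.035) when untreated KO replicate 2 was left out.

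**Figure D2:**
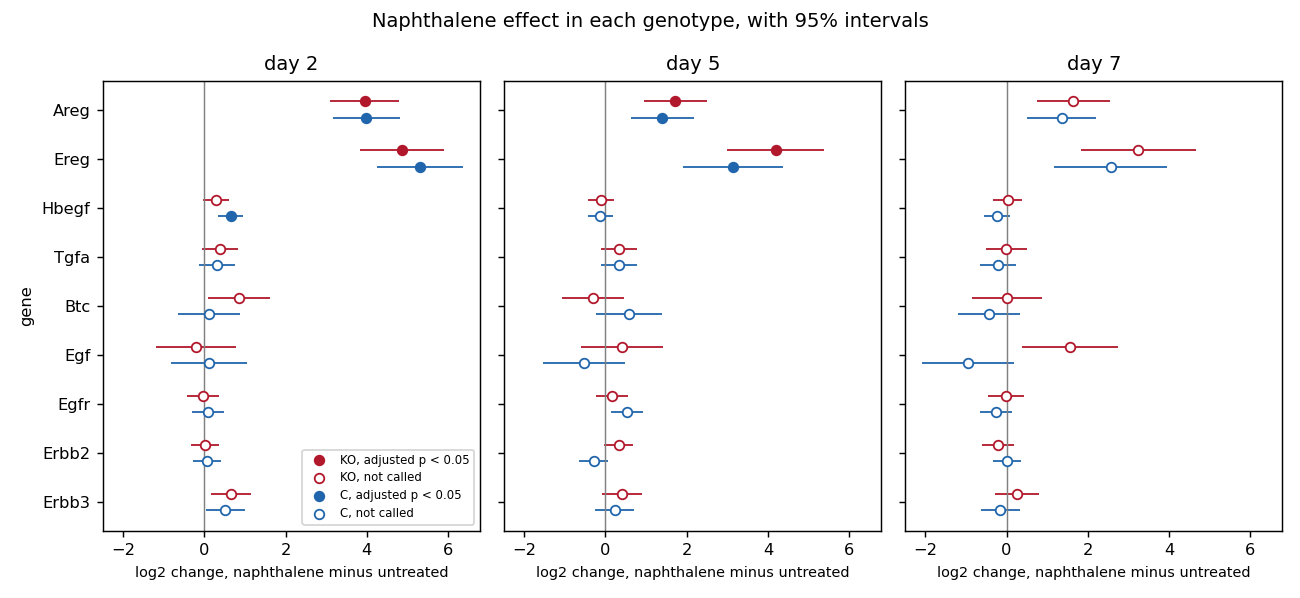
Log2 change of each tested member, naphthalene minus untreated, at days 2, 5 and 7, in KO and C lungs; points are estimates, bars 95% intervals, and filled points passed the test. Areg and Ereg stand to the right of all other members at days 2 and 5, and no point is filled at day 7.

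The naphthalene effects were then compared between days. No letter in the library names is shared between days, so what the letters stand for cannot be told apart from day. Treated Areg at day 5 was 41.1% of its day 2 level in KO lungs and 26.3% in C lungs, and at day 7 it was 19.5% and 11.8%. Treated Ereg at day 5 was 22.05% of its day 2 level in KO lungs and 14.9% in C lungs, and at day 7 it was 11.1% and 8.05%. The test of the difference asked whether the treated-to-untreated ratio itself changed. For Areg the effect at day 5 was smaller than at day 2 by a log2 change of -2.41 ± 0.38 (adjusted p = 0.000817), while 0.218% of all genes were called lower in this contrast. Ereg gave -1.43 ± 0.63 (adjusted p = 0.317) and Hbegf -0.58 ± 0.16 (adjusted p = 0.0688), and neither was called. With the letter in the library name as a covariate, Ereg was called at -2.48 (adjusted p = 0.0297). Hbegf was called by DESeq2 (adjusted p = 0.0169), with library totals only (0.0401) and with the replicate number as a block (0.0446). It was also called when untreated KO replicate 1 of day 2 was left out (adjusted p = 0.0465). Between day 7 and day 5 none of the 9 members was called, and 0% of all genes were called by edgeR and 0 genes by DESeq2. At an unadjusted p under 0.05, 1 of the 9 members and 1378 of all 20606 genes passed. The member count is thus near the background share.

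Untreated Areg, the other term of this ratio, averaged 4.89 ± 1.43 CPM in KO lungs and 4.24 ± 1.22 CPM in C lungs at day 5, against 2.62 ± 1.41 and 2.69 ± 0.734 CPM at day 2 (SD, n = 3 each). The libraries of the 2 days overlapped in both genotypes, and this difference was not tested. Untreated lungs of day 7, set against those of day 2, showed no member called, while 13.8% of all genes changed. Of the 9 tested members, 3 passed at an unadjusted p under 0.05, beside 5959 of all 20606 genes. This count of members is near the background share. Egf was among the 3, at 0.527-fold (0.316 to 0.878; adjusted p = 0.0834). Egf was called lower without untreated C replicate 2 of day 2 or of day 7, with adjusted p of 0.0334 and 0.0428.

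**Figure D3:**
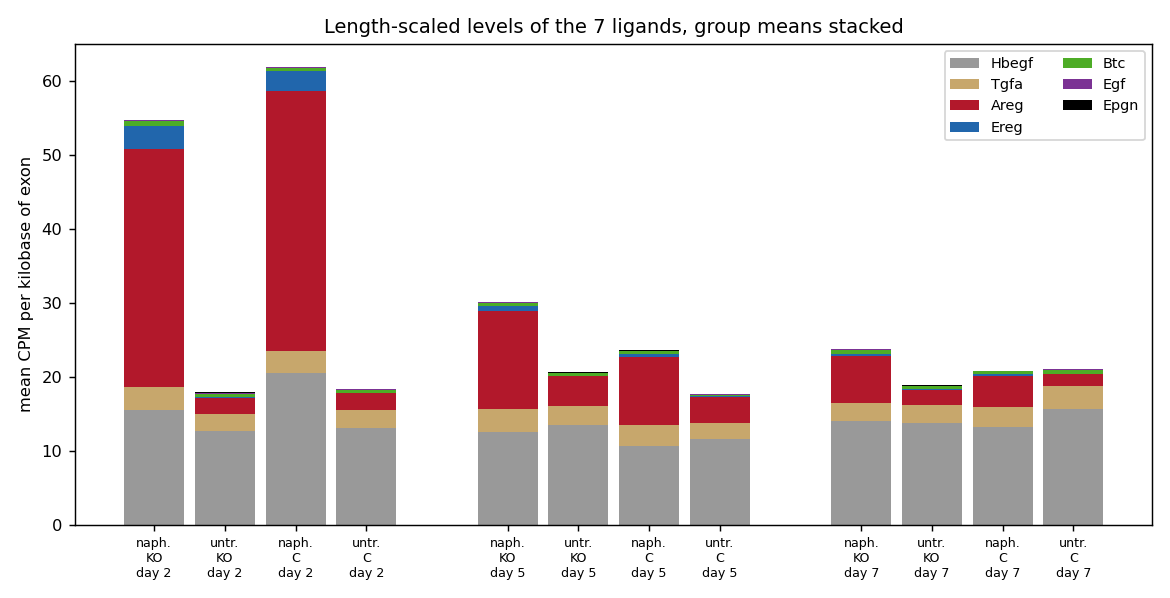
Mean level of the 7 ligands as CPM per kilobase of exon, stacked, in each of the 12 groups; bars start at 0. Areg makes up 58.8% of the stack in treated KO lungs and 56.8% in treated C lungs at day 2, against 12.05% and 12.07% untreated.

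Scaled by exon length, the 7 ligands together came to 54.7 CPM per kilobase in treated KO lungs at day 2, against 17.9 CPM per kilobase in untreated KO lungs. In C lungs they came to 61.9 CPM per kilobase after naphthalene and 18.3 CPM per kilobase untreated. Areg supplied 58.8% of this sum in treated KO lungs and 56.8% in treated C lungs. Hbegf, with 28.3% in treated KO lungs and 33.1% in treated C lungs, was second there, but it supplied 70.6% in untreated KO lungs and 71.5% in untreated C lungs. Ereg reached only 5.85% in treated KO lungs and 4.33% in treated C lungs, in spite of its larger fold change. At day 5, Areg supplied 44.0% and Hbegf 41.5% in treated KO lungs, while Areg supplied 39.2% and Hbegf 45.0% in treated C lungs. At day 7 Hbegf was ahead in both, with 59.0% in treated KO lungs and 63.7% in treated C lungs. These shares describe group means and were not tested.

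The question of the genotype was whether KO lungs differed in any member. In none of the 8 genotype comparisons, nor in the 3 comparisons of the naphthalene effect between genotypes, was a member called. In all of these 0% of the genes tested were called by edgeR, although 371 to 1969 genes passed at an unadjusted p under 0.05. DESeq2 called 23 genes in untreated lungs at day 5, 1 gene in untreated lungs averaged over days and 0 in the others, and none was a member.

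After naphthalene, Areg averaged 39.1 ± 6.27 CPM in KO lungs and 42.7 ± 1.05 CPM in C lungs at day 2. At day 5 it averaged 16.1 ± 6.44 CPM in KO lungs and 11.2 ± 1.17 CPM in C lungs (SD, n = 3 each). At day 7 it averaged 7.61 ± 2.80 CPM in KO lungs (SD, n = 2) and 5.06 ± 1.93 CPM in C lungs (SD, n = 3). The genotypes overlapped at every day, but at day 5 only through treated KO replicate 1. It had 8.67 CPM, and the other KO replicates had 20.2 and 19.4 CPM, against 9.94 to 12.2 CPM in C lungs. The same replicate had the highest Il7r of the KO libraries, 11.2 CPM, against 2.55 to 4.74 CPM in treated C lungs of day 5. Averaged over treated days, Areg was 1.25-fold in KO lungs relative to C lungs (0.922 to 1.70; adjusted p = 0.833), so that a KO level 1.70 times that of C lungs lies at the edge of the interval. The genotype difference in its naphthalene effect had intervals of 0.449 to 2.08-fold at day 2, 0.596 to 2.64-fold at day 5 and 0.520 to 2.87-fold at day 7. Ereg over treated days was 1.51-fold (1.05 to 2.18) with an unadjusted p of 0.0294 and an adjusted p of 0.833.

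Hbegf at day 2 after naphthalene was 64.4 to 82.3 CPM in KO lungs and 90.5 to 104 CPM in C lungs, without overlap. The change was 0.755-fold (0.607 to 0.940), with an unadjusted p of 0.0135 and an adjusted p of 0.756. Its naphthalene effect was not called different between genotypes, at 0.782-fold (0.574 to 1.07; adjusted p = 1). Egf at day 7 after naphthalene was 1.25 and 1.35 CPM in KO lungs, against 0.598, 0.189 and 0.375 CPM in C lungs. Untreated Egf of day 7 was 0.431, 0.405 and 0.484 CPM in KO lungs, against 0.284, 1.24 and 0.715 CPM in C lungs. Those groups differed without overlap after naphthalene and overlapped untreated, and the difference of effects had a log2 change of 2.50 ± 0.80 (adjusted p = 0.97). These Egf values rest on 3 to 18 reads per library. Erbb2 at day 5 gave a log2 difference of effects of 0.62 ± 0.24 (adjusted p = 0.544). Of the receptors, Egfr was 29.02, 25.97 and 31.8 CPM in untreated KO lungs of day 2, against 20.3, 21.7 and 19.3 CPM in untreated C lungs, without overlap and with an adjusted p of 0.842.

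**Figure D4:**
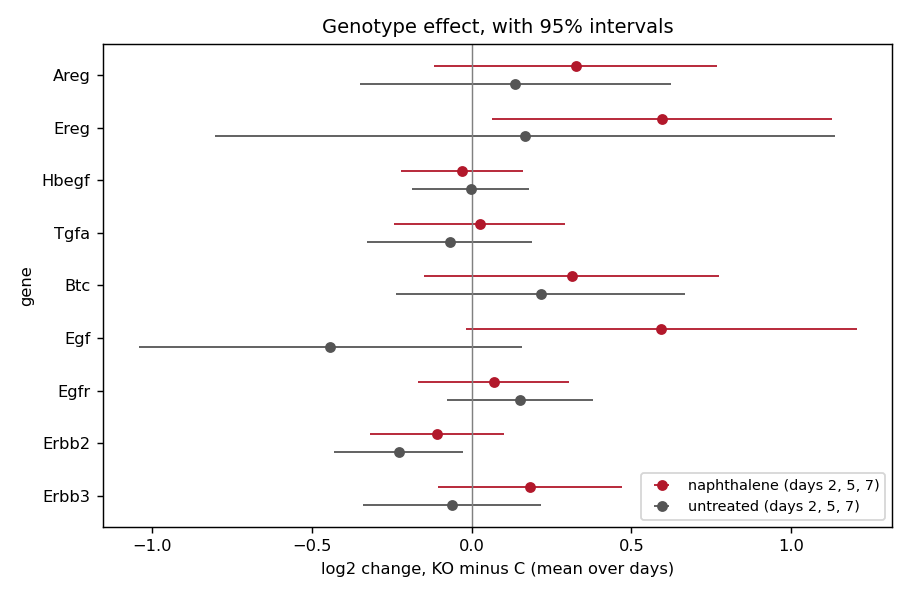
Log2 change of each tested member between genotypes, KO minus C, averaged over the 3 days, in naphthalene-treated and in untreated lungs; points are estimates and bars 95% intervals. The estimates run from -0.44 for Egf in untreated lungs to 0.59 for Ereg in treated lungs, and none passed the test after adjustment.

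Further genes of the pathway were read from 5 lists. Of 5 other genes of the ERBB family, 3 could be tested, and Erbb4 and Nrg3 could not. Neuregulin 1 (Nrg1), a ligand of ERBB3 and ERBB4, rose at day 2. The symbol Nrg1 has 2 gene entries: the CPM values sum both, and the log2 changes are of the first entry. Nrg1 was 10.8 to 13.6 CPM in treated KO lungs against 2.03 to 2.81 CPM in untreated KO lungs, and 10.2 to 13.9 CPM in treated C lungs against 1.86 to 2.28 CPM in untreated C lungs. Its log2 change was 2.20 ± 0.30 in KO lungs (adjusted p = 2.07e-05) and 2.47 ± 0.30 in C lungs (adjusted p = 2.2e-06). At day 5 Nrg1 was called with both genotypes averaged, at 0.94 ± 0.21 (adjusted p = 0.00527). Of 8 genes of ligand release, Adam12, a metalloprotease that can shed Hbegf, was lower at day 2, with a log2 change of -1.12 ± 0.28 in KO lungs (adjusted p = 0.0208) and -1.53 ± 0.28 in C lungs (adjusted p = 0.000887). The share of all genes called lower at that day is not given here. Adam9, the metalloprotease of that list with the highest CPM, was not called, with 0.12 ± 0.19 in KO lungs and 0.19 ± 0.19 in C lungs.

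None of 15 adaptors and kinases of the ERK cascade was called at day 2, which is also near that day's background of 1.99% called higher in KO lungs and 2.57% in C lungs. At day 5, Araf was lower in C lungs, with a log2 change of -0.74 ± 0.20 (adjusted p = 0.044), and no share of all genes called lower is given beside it. It had 108 to 125 CPM in treated C lungs, against 209, 248 and 134 CPM untreated, the first in the library with high P2ry12. In KO lungs of day 5 it averaged 138 ± 39.5 CPM after naphthalene and 140 ± 17.2 CPM untreated (SD, n = 3 each). Mapk3, which encodes ERK1, gave -0.14 ± 0.20 in KO lungs and -0.05 ± 0.20 in C lungs at day 2. None of 15 feedback inhibitors and none of 10 tested ERK response genes was called at day 2, 5 or 7 in either genotype. At most 2.57% of all genes were called higher in these comparisons, so that 0 of 15 and 0 of 10 lie near the background share. At day 2, Errfi1, an inhibitor that binds the kinases of this receptor family, gave 0.31 ± 0.31 in KO lungs and -0.06 ± 0.31 in C lungs. Etv5, a transcription factor that responds to ERK, gave -0.01 ± 0.27 in KO lungs and -0.25 ± 0.27 in C lungs. The median log2 change of the feedback inhibitors at day 2 was 0.03 in KO lungs and -0.14 in C lungs, beside -0.03 and -0.04 over all genes tested.

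Levels of the members across the 12 group means varied together in part. Areg and Ereg had r = 0.949 over the 12 groups and 0.927 over the 35 libraries on the log2 scale. After each group's mean was removed, the deviations of Areg and Ereg had r = 0.657 over the 35 libraries. This was not particular to the pair: Areg and Btc had r = 0.693, and Tgfa and Btc had r = 0.764. Areg and Erbb3 had r = 0.915 over the groups, and Areg and Hbegf only 0.411. These values describe libraries that share treatment and scaling. Among 12341 other genes, those with group means most like Areg were Zfp474 (r = 0.979), Acox2 (0.979) and Drc7 (0.971). For Ereg they were Gprc5c (0.984), Psapl1 (0.979) and Akr1b8 (0.979), and for Hbegf Rbfox3 (0.914), Kcnip3 (0.894) and Ucp2 (0.880). For Erbb3 they were Liph (0.971), Pxk (0.949) and Vdr (0.948).

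Summed marker levels of several cell types moved with naphthalene at day 2, and such sums do not tell cell number from RNA per cell. The sums of alveolar type 1 cells, alveolar type 2 cells, T cells, endothelium and fibroblasts overlapped between treated and untreated lungs in both genotypes. The ciliated sum was 527 to 591 CPM in treated C lungs against 411 to 461 CPM untreated. The mast cell and basophil sum was 3.66 to 5.77 CPM in treated C lungs against 7.41 to 9.41 CPM untreated. Both of these sums overlapped in KO lungs. The summed level of 4 club cell markers at day 2 was 611 to 695 CPM in treated KO lungs against 5810.4 to 9704 CPM in untreated KO lungs. It was 576 to 1166 CPM in treated C lungs against 7027 to 8631 CPM untreated, and 3 of 4 markers were called lower in each genotype. The share of all genes called lower is not given here, so this count is a description only. The sum of 7 luminal and squamous epithelial markers was 315 to 450 CPM in treated KO lungs against 102 to 136 CPM untreated, and 428 to 591 CPM in treated C lungs against 91.3 to 186 CPM untreated. All 5 tested genes of that list were higher in both genotypes, and Krt6a was at 0 in the untreated groups of day 2. The sum of 4 alveolar macrophage markers was 302 to 466 CPM in treated KO lungs against 85.3 to 120 CPM untreated, and 284 to 459 CPM in treated C lungs against 86.5 to 108 CPM untreated, with 1 of 4 called in each genotype. The sum of 5 neutrophil markers was 75.2 to 303 CPM in treated KO lungs against 65.6 to 91.5 CPM untreated, and 310 to 423 CPM in treated C lungs against 40.9 to 249 CPM untreated, with 2 of 5 called in each genotype. The mesothelial sum of 4 markers was 270 to 298 CPM in treated KO lungs against 125 to 158 CPM untreated, and 310 to 398 CPM in treated C lungs against 140 to 240 CPM untreated, with 1 of 4 called higher in each genotype. The basal cell sum of 5 markers was 3.97 to 7.43 CPM in treated KO lungs against 1.15 to 2.55 CPM untreated, and 4.12 to 9.33 CPM in treated C lungs against 1.29 to 1.74 CPM untreated. Of the basal markers, 2 were called higher in KO lungs and 3 in C lungs. Over all genes tested, 1.99% were called higher in KO lungs and 2.57% in C lungs at day 2. B cell and NK cell sums were lower without overlap. The sum of 4 B cell markers was 89.0 to 165 CPM in treated KO lungs against 232 to 298 CPM untreated, and 156 to 182 CPM in treated C lungs against 208 to 295 CPM untreated. The sum of 3 NK cell markers was 1.76 to 3.30 CPM in treated KO lungs against 5.75 to 6.66 CPM untreated, and 1.38 to 2.03 CPM in treated C lungs against 4.61 to 5.40 CPM untreated. Among these sums, with each group's mean removed, the highest r over the 35 libraries was 0.510 for Areg, with alveolar macrophage markers, and 0.695 for Erbb3, with mesothelial markers. For Hbegf it was 0.525, with luminal and squamous markers, and for Ereg only 0.225, with alveolar macrophage markers. The part of these cells in the rise of Areg, Ereg, Hbegf and Erbb3 was not tested.

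Of 7 ILC2 markers, 6 could be tested and 0 were called in any naphthalene comparison within a genotype. With at most 2.57% of all genes called higher in these comparisons, a count of 0 in 6 is near the background. The ILC2 sum at day 2 was 12.1 to 16.9 CPM in treated KO lungs against 14.4 to 21.9 CPM in untreated KO lungs. In C lungs it was 13.2 to 16.6 CPM after naphthalene and 12.4 to 24.9 CPM untreated. The ILC2 sums overlapped in both genotypes. Markers do not measure Areg per cell, and the part of ILC2s in the level of Areg was not tested. Il13 was at 0 in treated KO lungs of day 7. At day 5 the treated KO replicate 1 had the lowest Areg and Ereg of its group. It also had the lowest luminal and squamous sum, 119 CPM against 388 and 260 CPM in the other replicates. Its alveolar macrophage, alveolar type 2, ciliated, basal and mesothelial sums were the group's lowest too. Its ILC2 sum was the group's highest, 23.9 CPM against 14.4 and 16.4 CPM. So was its B cell sum, 184 CPM against 73.7 and 80.9 CPM. The part of these differences in its Areg level was not tested. The mitochondrial share of counts at day 2 was 2.04 ± 0.476% in treated KO lungs against 1.40 ± 0.135% untreated, and 1.65 ± 0.0147% in treated C lungs against 1.04 ± 0.252% untreated (SD, n = 3 each). At days 2 and 5 the treated and untreated libraries carry different letters in their library names, so whatever these letters stand for cannot be told apart from treatment there. No letter is shared between days either, so comparisons between days carry the same limit. At day 7 all libraries share 1 letter, and the values of Areg and Ereg given above for day 7 are within it.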

How the data were processed

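RNA of whole lung homogenate was extracted with Trizol and made into libraries with a Watchmaker Genomics mRNA kit, per the labels' protocols. The deposited table holds whole-number counts per gene, not normalized, for 35 libraries. The submitters' processing notes name the build GRCm39 and DESeq2 without a role; no aligner, counter or annotation release is stated there or in the labels. The 10 members, the gene lists and the tests were chosen with earlier results of these data known. The text names the members, and of each pathway list the gene with the highest CPM and, per direction, the called gene of smallest p; genes most like a called member are the 3 with the highest correlation of mean log2 CPM.

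The tools were edgeR 4.0.16, limma 3.58.1 and R 4.3.3. filterByExpr left 20606 genes with at least 99.868% of every library's counts, libraries were scaled by TMM, and 1 quasi-likelihood fit over the 12 groups (23 residual degrees of freedom, common biological coefficient of variation 0.222) gave 23 contrasts. P-values were adjusted by Benjamini-Hochberg over all genes tested in each contrast. The labels do not say whether replicates are separate mice, so p-values measure the spread between libraries. On simulated counts of 20108 genes for the KO comparison at day 2, 31.4% of the genes changed 2-fold and 83.2% of those changed 4-fold were found, and 8 of 120 calls were false. DESeq2 1.42.0 served as an alternative. Promoter sequences are RefSeq's, of GRCm38.p6, and exon lengths are from GENCODE M21; no coordinates were moved between builds.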

Additional observations from a re-analysis of the deposited data

Results flagged for a closer look

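The naphthalene effect on Areg differed between days by a test of the difference itself: at day 5 it was lower than at day 2 by a log2 change of -2.41 (adjusted p = 0.000817 by edgeR). It was called under all 24 omissions of a single library, with values of -2.65 to -2.24. The letters in the library names differ between these days, so what they stand for cannot be told apart from day. Areg of treated libraries was lower at day 5 than every treated library of day 2 in both genotypes, with 8.67 to 20.2 CPM at day 5 and 31.9 to 43.4 CPM at day 2 in KO lungs. Outlying libraries could not be flagged, since no group has more than 3 libraries.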

How the results depend on the processing

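The rise of Areg and Ereg at day 2 in each genotype, and at day 5 over both genotypes, was called under every alternative run. Of 207 member estimates, 78 changed sign under at least 1 alternative, and 0 of these were called with the settings of the report or under the alternative concerned. At day 2, Erbb3 was also called in KO lungs without a filter on low counts (log2 change 0.68, adjusted p = 0.036 by edgeR). The day 2 calls of Hbegf in C lungs and of Erbb3 over both genotypes were lost without some single libraries, as given above. In the other comparisons, counts of called members moved as follows. In C lungs at day 5 the count of 2 became 1 with library totals only, with the replicate number as a block or with the library letter as a covariate, and 0 with the compared groups only. In KO lungs at day 5 it became 1 with the letter or the compared groups only. At day 7 the count of 0 in KO lungs became 2 without a filter on low counts and 1 with library totals, the letter or DESeq2, and in C lungs it became 2 without a filter. Over both genotypes at day 7 the 2 became 1 with the compared groups only. For day 5 minus day 2 the 1 became 2 with library totals, the block, the letter or DESeq2. For untreated day 7 minus day 2 the 0 became 1 with library totals. Leaving out 1 library gave 0 to 4 in C lungs and 1 to 2 in KO lungs at day 5, 2 to 4 over both genotypes at day 5 and 1 to 2 at day 7, 0 to 1 in KO lungs at day 7, 1 to 2 for day 5 minus day 2 and 0 to 1 for untreated day 7 minus day 2. The cause was not tested.

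No genotype comparison called a member under any setting. Of all genes, edgeR called 0 there, but without a filter 12 to 245, and with the compared groups only 86 in treated lungs of day 2 and 2 in untreated lungs of day 5. Same-numbered replicates did not pair: 9 of 34 pairs had a correlation of deviations over 0.1, with values of -0.305 to 0.398. The depth limits Ereg, Egf and Epgn most, at up to 5 reads per library for Epgn. The alternatives used fit, filter and scaling; the letter could be entered only where it did not coincide with a group.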
